A study of Mus musculus with 6 samples.

Results

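The growth hormone and insulin-like growth factor (IGF) axis of the liver was examined as 10 genes, chosen by symbol: Ghr, Socs2, Igf1, Igfals, Igfbp1, Igfbp2, Igfbp3, Igfbp4, Irs1 and Irs2. A gene was read from a probe set paired with exactly 1 gene symbol, and from the probe set with the highest mean over all arrays where it had several. All 10 were measured, out of 22180 genes with such a probe set. The cells were hepatocytes isolated from wild type adult male C57Bl/6 mice and cultured without serum in William's medium. They received the synthetic FXR agonist GW4064 at 2 µM, or its solvent DMSO, for 4 h. FXR is the nuclear receptor for bile acids. The 6 arrays, Affymetrix MoGene-2_0-st with a single colour, hold 3 treated and 3 solvent samples from 3 preparations of cells. How many mice made up a preparation is not given in the sources used here.

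In the liver, growth hormone binds its receptor Ghr and acts through the kinase JAK2 and the transcription factor STAT5 on Igf1, on Igfals and on the feedback inhibitor Socs2. IGF1 circulates bound to IGF-binding proteins, mainly in a complex with IGFBP3 and the acid-labile subunit that Igfals encodes. IGFBP1 is a short-lived binding protein whose gene is switched on in fasting through FoxO1 and cAMP and switched off by insulin. Irs1 and Irs2 encode the adaptors that carry the signal of the insulin and IGF1 receptors inward.

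No member of the axis passed the test for a difference between GW4064 and DMSO. The members furthest from 0 were the binding protein genes Igfbp3 and Igfbp1, at log2 changes of -0.64 (SE 0.25) and -0.56 (SE 0.28), and in both genes every treated array lay below the DMSO array of its replicate number. The largest difference upward was that of the adaptor gene Irs1, at 0.26 (SE 0.12). Limma, fitted over all genes with Benjamini-Hochberg adjustment, called 0 of the 10 at an adjusted p under 0.05 (adjusted p from 0.858 to 0.998), where 0.0496% of all genes were called. With the replicate number as a block it also called 0 of 10 (adjusted p from 0.108 to 0.907), where 0.0812% of all genes were called. At an unadjusted p under 0.05 the counts were 1 of 10 without the block and 5 of 10 with it, against 5.66% and 9.13% of all genes.

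The arrays recorded a response to the agonist in other genes. Abcb11, which encodes the bile salt export pump, had levels of 5.09, 4.83 and 4.74 in DMSO replicates 1, 2 and 3 and of 8.14, 7.81 and 7.96 with GW4064 (RMA intensity, log2 scale), and Nr0b2, the nuclear receptor SHP, had 4.58, 4.49 and 4.46 against 6.68, 7.11 and 6.87. Hepatocyte markers were high on average, with a mean over 10 genes of 10.12 to 10.24 on the DMSO arrays and 10.07 to 10.19 on the GW4064 arrays. Of these markers 8 were lower and 2 higher with GW4064, and 0 were called in either fit. Hnf4a had the largest log2 change, 0.55 (SE 0.12, limma adjusted p = 0.393, 0.151 with the replicate block). Its groups did not overlap, which held for 10.8% of all genes. Single markers differed widely, with Ass1 at 4.59 to 5.75, Serpina1a at 6.17 to 6.93 and Alb at 12.80 to 12.88 over all arrays. Array medians over all genes lay between 4.19 and 4.24. Precision is limited by having 3 arrays in a group, and an exact unpaired permutation test cannot give a two-sided p below 0.1. For an exact test on the 3 same-numbered pairs this floor is higher.

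The start regions of 3 members are shown so that the elements known to link the axis to insulin and growth hormone can be looked for in them. These are Igfbp1 and Igfbp3, the members furthest from 0, and Igfals, whose change was the smallest in size. Each runs from 250 bases before to 50 after a RefSeq transcript start (GRCm38.p6), with matches to the motifs searched in capitals. The Igfbp1 region is at chr11:7197537-7197836 (plus strand), the Igfbp3 region at chr11:7213874-7214173 (minus strand) and, of the 3 Igfals regions, the one with the most matches at chr17:24877981-24878280 (plus strand).
Igfbp1: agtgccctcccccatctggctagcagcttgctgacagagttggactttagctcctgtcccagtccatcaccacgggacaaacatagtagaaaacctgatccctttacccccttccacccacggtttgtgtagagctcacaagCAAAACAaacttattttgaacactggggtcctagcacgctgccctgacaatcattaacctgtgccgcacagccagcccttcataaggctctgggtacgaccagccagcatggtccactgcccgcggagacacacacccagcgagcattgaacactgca
Igfbp3: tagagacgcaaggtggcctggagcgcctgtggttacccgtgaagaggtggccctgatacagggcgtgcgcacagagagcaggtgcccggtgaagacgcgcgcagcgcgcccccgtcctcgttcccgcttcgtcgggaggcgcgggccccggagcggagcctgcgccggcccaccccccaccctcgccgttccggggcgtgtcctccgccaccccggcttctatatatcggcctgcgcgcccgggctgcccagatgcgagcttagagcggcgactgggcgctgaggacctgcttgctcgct
Igfals: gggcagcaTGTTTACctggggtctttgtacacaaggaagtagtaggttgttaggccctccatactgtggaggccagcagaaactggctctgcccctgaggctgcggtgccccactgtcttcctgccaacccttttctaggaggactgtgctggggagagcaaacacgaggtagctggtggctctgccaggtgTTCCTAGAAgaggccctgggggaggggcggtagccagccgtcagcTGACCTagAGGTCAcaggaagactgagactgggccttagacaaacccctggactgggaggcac

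The motifs, searched on both strands, were the nuclear receptor monomer site AGGTCA, the FXR inverted repeat (this site and its reverse complement, 1 base apart), the FoxO consensus GTAAACA, the insulin response core CAAAACA, the STAT5 site TTCNNNGAA, the cAMP response element TGACGTCA and the TATA box TATAAA. The FXR repeat contains the monomer site, so a match to the repeat is also a match to the site. Regions were found for 9 of the 10 members, 13 in all, and Socs2 had no entry. The Igfbp1 region held 1 match, the insulin response core at base -108, in capitals above. This core was also in the regions of Irs1 and Irs2, and 6.28% of 32851 regions in the table hold it. The Igfbp3 region held no match and had a GC content of 71.7%, against 54.3% for Igfbp1 and a median of 52.7% over the table.

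The Igfals region printed above, which held 4 matches where the other regions of the gene held 2 and 0, had a STAT5 site at base -58, a FoxO consensus on the opposite strand at base -242 and monomer sites at bases -13 and -5. The STAT5 site occurs in 8.30% of all regions, the FoxO consensus in 3.65% and the monomer site in 16.3%. No member region held the full FXR repeat, which 3 of all 32851 regions hold, or the cAMP response element, which 1.79% hold. Only exact copies within these regions were searched, and a repeat this rare would be absent from nearly any set of regions. Its absence therefore does not show whether the members have FXR sites. A match is a description of letters only. Igfbp1 and Igfbp3 are neighbours in the RefSeq order of chromosome 11, on opposite strands and facing each other, with the starts of the printed transcripts 16136 bases apart.

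Ghr encodes the growth hormone receptor. Its levels were 5.84, 6.09 and 5.76 in DMSO replicates 1, 2 and 3, and 5.59, 5.78 and 5.71 with GW4064. The lowest values were those of the treated arrays of replicates 1 and 3, and the groups overlapped by a narrow margin. The log2 change was -0.20 (SE 0.11), and it was below 0 in all 3 pairs (limma adjusted p = 0.951, 0.569 with the replicate block). Without DMSO replicate 2 it was -0.10.

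Socs2 encodes the inhibitor that growth hormone induces against its own receptor. It stood at 6.34, 6.91 and 6.83 in DMSO and at 6.63, 6.24 and 6.73 with GW4064. The pairs went in different directions, with differences of 0.29, -0.67 and -0.10 in replicates 1, 2 and 3, the widest spread of the 10 members. The log2 change was -0.16 (SE 0.18, limma adjusted p = 0.998), and its sign turned without replicate 2 (0.094). A second Socs2 probe set, lower on the same arrays, had 4.68, 4.48 and 4.79 in DMSO and 4.52, 4.40 and 4.52 with GW4064, a change of -0.17 (SE 0.11), and there all 3 pairs were lower.

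Igf1, the hormone that the liver secretes in response to growth hormone, had levels of 8.92, 8.31 and 8.40 in DMSO and of 8.70, 8.11 and 8.19 with GW4064. Replicate 1 was the highest in both groups, and the groups overlapped. The 3 pair differences were -0.215, -0.199 and -0.206, the narrowest spread of the 10 members (SD 0.0082). The ratio of GW4064 to DMSO was 0.866 (95% interval 0.637 to 1.18 without the block and 0.762 to 0.985 with it), and neither fit called it (limma adjusted p = 0.998 and 0.509). With single arrays left out, which breaks a pair, its log2 change was -0.39 (without GW4064 replicate 1) to -0.018 (without DMSO replicate 1), and with a pair left out -0.21 to -0.20.

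Igfals, for the acid-labile subunit that stabilises IGF1 in blood, had 5.38, 5.49 and 5.35 in DMSO and 5.73, 5.45 and 5.22 with GW4064. The treated arrays held both the highest and the lowest value. The log2 change was 0.061 (SE 0.13), the smallest of the 10 in size, and its sign turned without replicate 1 (-0.081) and without GW4064 replicate 1 (-0.069).

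Igfbp1 encodes the binding protein that insulin represses. Its levels were 11.12, 10.77 and 11.52 in DMSO and 10.73, 9.94 and 11.05 with GW4064. Replicate 3 was the highest and replicate 2 the lowest in both groups, and the groups overlapped. The pair differences were -0.38, -0.83 and -0.47. The ratio was 0.678 (95% interval 0.440 to 1.05 without the block, 0.566 to 0.813 with it; limma adjusted p = 0.928 and 0.253). Of all genes, 0.496% had a change of larger size than Igfbp1. With arrays or pairs left out, its log2 change was -0.80 (without GW4064 replicate 3) to -0.24 (without GW4064 replicate 2).

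Igfbp2, a binding protein abundant in fetal liver and in fasting, had 5.13, 5.63 and 5.09 in DMSO and 5.41, 5.51 and 5.42 with GW4064. DMSO replicate 2 was above all treated arrays and the other DMSO arrays were below them. The log2 change was 0.16 (SE 0.14, limma adjusted p = 0.998), with 2 of 3 pairs higher. It was 0.34 without DMSO replicate 2 and 0.067 without DMSO replicate 3.

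Igfbp3, the main carrier of IGF1 in blood, had 8.09, 7.85 and 7.25 in DMSO and 7.36, 7.33 and 6.59 with GW4064. Replicate 3 was the lowest in both groups, and DMSO replicate 3 lay below treated replicates 1 and 2. The pair differences were -0.73, -0.52 and -0.66. The ratio was 0.643 (95% interval 0.435 to 0.951 without the block, 0.559 to 0.740 with it), with a limma adjusted p of 0.858 and of 0.108 with the block. By its p in the blocked fit Igfbp3 was 41st of all 22180 genes, and 0.289% of genes had a change of larger size. With arrays or pairs left out, its log2 change was -0.88 (without DMSO replicate 3) to -0.39 (without GW4064 replicate 3).

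In liver, Igfbp3 is also known from cells other than hepatocytes, so the markers of those cells are given beside it. Of 10 sinusoidal endothelial markers 5 were lower and 5 higher, with summed levels of 44.6 to 47.0 on the DMSO arrays and 44.6 to 47.8 on the GW4064 arrays. Of 10 Kupffer cell and macrophage markers 5 were lower and 5 higher, with sums of 40.1 to 41.5 and 39.9 to 41.8. Of 10 stellate cell and fibroblast markers 1 was lower and 9 higher, with sums of 36.4 to 37.8 and 36.9 to 38.8. The 5 cholangiocyte markers measured summed to 21.9 to 22.4 and 22.0 to 23.0, with 1 lower and 4 higher. No marker in these lists passed the test in either fit. No marker is at 0 on this scale. Among the defining ones the Kupffer gene Clec4f lay at 3.60 to 4.06, the endothelial gene Stab2 at 3.90 to 4.31 and the stellate gene Lrat at 2.95 to 3.67, where the median gene lay at 4.20. Other markers were well above it, with the macrophage gene Cd68 at 8.46 to 10.02, the biliary gene Sox9 at 7.09 to 8.08 and the endothelial genes Cdh5 and Lyve1 at 5.91 to 6.78 and 5.55 to 6.37. The other biliary markers were lower than Sox9, with Epcam at 2.60 to 2.75, Cftr at 2.00 to 2.48, Krt7 at 4.60 to 5.34 and Krt19 at 4.76 to 5.35. Sox9 was higher in all 3 pairs, with a log2 change of 0.45 (SE 0.17). In RNA from a whole culture, fewer cells of a type and less RNA per cell cannot be told apart, and the part of other cells in the Igfbp3 values was not tested.

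Igfbp4, a binding protein that restrains IGF1 in tissues until a protease cuts it, had 9.01, 9.70 and 9.27 in DMSO and 8.83, 9.48 and 9.03 with GW4064. Replicate 2 was the highest and replicate 1 the lowest in both groups. The pair differences of -0.18, -0.22 and -0.24 were close to each other (SD 0.029). The ratio was 0.864 (95% interval 0.627 to 1.19 without the block and 0.760 to 0.983 with it), with a limma adjusted p of 0.998 and 0.504. The log2 change of -0.21 became -0.40 without GW4064 replicate 2 and -0.023 without DMSO replicate 2.

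Irs1, the adaptor of the insulin and IGF1 receptors, was the 1 member higher in all 3 pairs. It stood at 5.32, 5.69 and 5.43 in DMSO and at 5.65, 5.85 and 5.73 with GW4064. DMSO replicate 2 lay above treated replicate 1, so the groups overlapped. The ratio was 1.20 (95% interval 0.994 to 1.44 without the block, 1.04 to 1.37 with it), and limma gave an adjusted p of 0.893 and 0.455. A second Irs1 probe set, at 2.53, 2.49 and 2.23 in DMSO and 2.73, 2.51 and 2.84 with GW4064, had a log2 change of 0.28 (SE 0.13).

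Irs2, the other adaptor of liver and one that fasting raises, had 6.18, 6.60 and 6.73 in DMSO and 6.04, 6.40 and 6.61 with GW4064. Replicate 3 was the highest and replicate 1 the lowest in both groups. The pair differences were -0.14, -0.21 and -0.13, with a log2 change of -0.16 (SE 0.18, limma adjusted p = 0.998, 0.607 with the block). Leaving out DMSO replicate 1 gave -0.32, and leaving out GW4064 replicate 1 gave -0.0026. Irs1 and Irs2 thus lay on opposite sides of 0 in every pair, and neither was called.

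**Figure D1:**
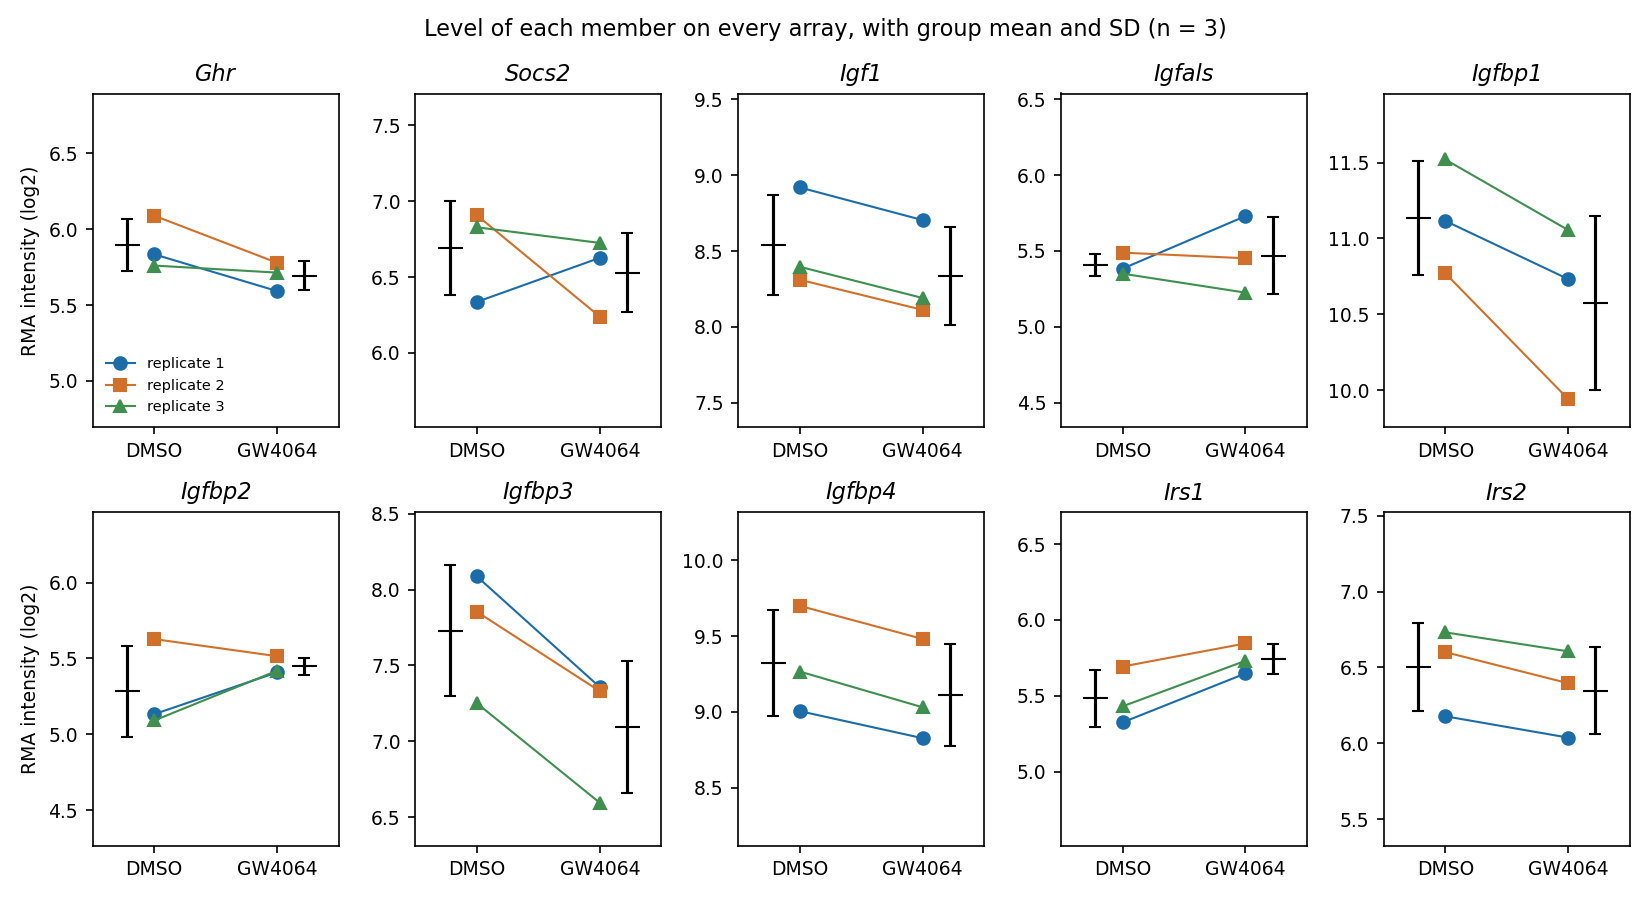
RMA intensity (log2 scale, y axis) of each of the 10 members on the DMSO and GW4064 arrays, with same-numbered arrays joined and the group mean with its SD (n = 3) in black. The axes span equal ranges, the lines of Igf1, Igfbp4 and Irs2 run nearly parallel, and lines cross for Ghr, Socs2, Igfals and Igfbp2.

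Of the members 7 of 10 had a change below 0, as 55.4% of all genes did. In all 3 pairs, 6 of 10 were lower with GW4064 (Ghr, Igf1, Igfbp1, Igfbp3, Igfbp4 and Irs2), where 18.6% of all genes were, and 1 of 10 was higher in all 3, where 12.6% were. For no member did the groups of 3 arrays separate without overlap, as 10.8% of all genes did. The median log2 change of the 10 was -0.18, beside -0.016 over all genes. The median size of the change, regardless of sign, was 0.20, beside 0.082. Every member had a mean level above that of at least 63% of all genes, and the values over all genes were not matched for level. The members were chosen with earlier results known, and these counts are a description of them.

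The 95% intervals bound what the arrays can show. For 8 of the 10 members the interval without the block held no 2-fold change in either direction, as for 99.3% of all genes, and Igfbp1 and Igfbp3, whose lower bounds were ratios of 0.440 and 0.435, were the exceptions. With the block, the intervals of all 10 held no 2-fold change, and those of Igf1, Igfbp1, Igfbp3, Igfbp4 and Irs1 did not include 0 before any adjustment for the number of genes.

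**Figure D2:**
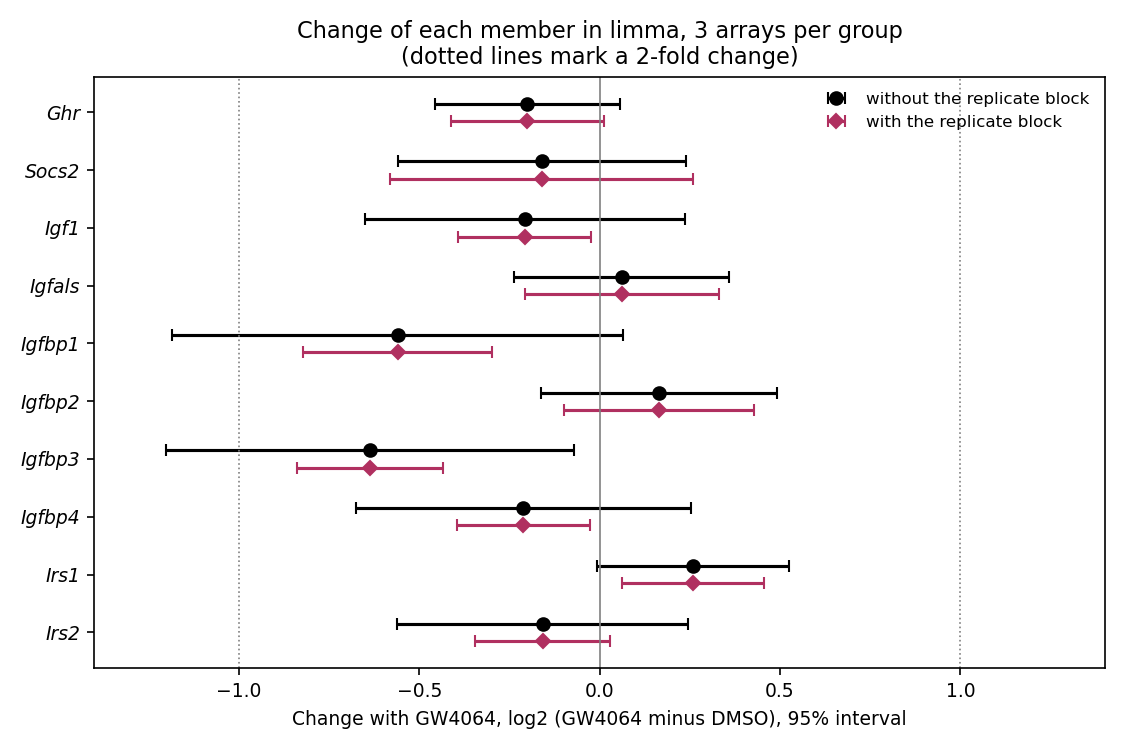
Log2 change with GW4064 (x axis, GW4064 minus DMSO) of the 10 members with its 95% interval in limma without the replicate block (black circles) and with it (red diamonds). The blocked intervals of Igfbp1 and Igfbp3 lie wholly below 0, from -0.82 to -0.30 and from -0.84 to -0.44, and no blocked interval reaches the dotted lines of a 2-fold change.

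Differences between replicate numbers are set beside the change with GW4064. The range of replicate-number means and the difference of group means are unlike measures, and the range was the larger in most genes. The mean of each same-numbered pair ranged over 0.93 for Igfbp1, 0.80 for Igfbp3, 0.67 for Igfbp4, 0.60 for Igf1 and 0.56 for Irs2 on the log2 scale. In 10 of 10 members this range was larger than the size of the change with GW4064, as it was in 78.8% of all genes. Its median was 0.44 for the members and 0.19 for all genes, which were not matched to the members in level. In 6 of 10 members (Igf1, Igfbp1, Igfbp3, Igfbp4, Irs1 and Irs2) the replicates stood in the same order in both groups, where 26% of all genes did so. No single order ran through all 6, although Igfbp4 and Irs1 had the same one. Replicate 1 was the highest for Igf1 and Igfbp3, replicate 2 for Igfbp4 and Irs1, and replicate 3 for Igfbp1 and Irs2.

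**Figure D3:**
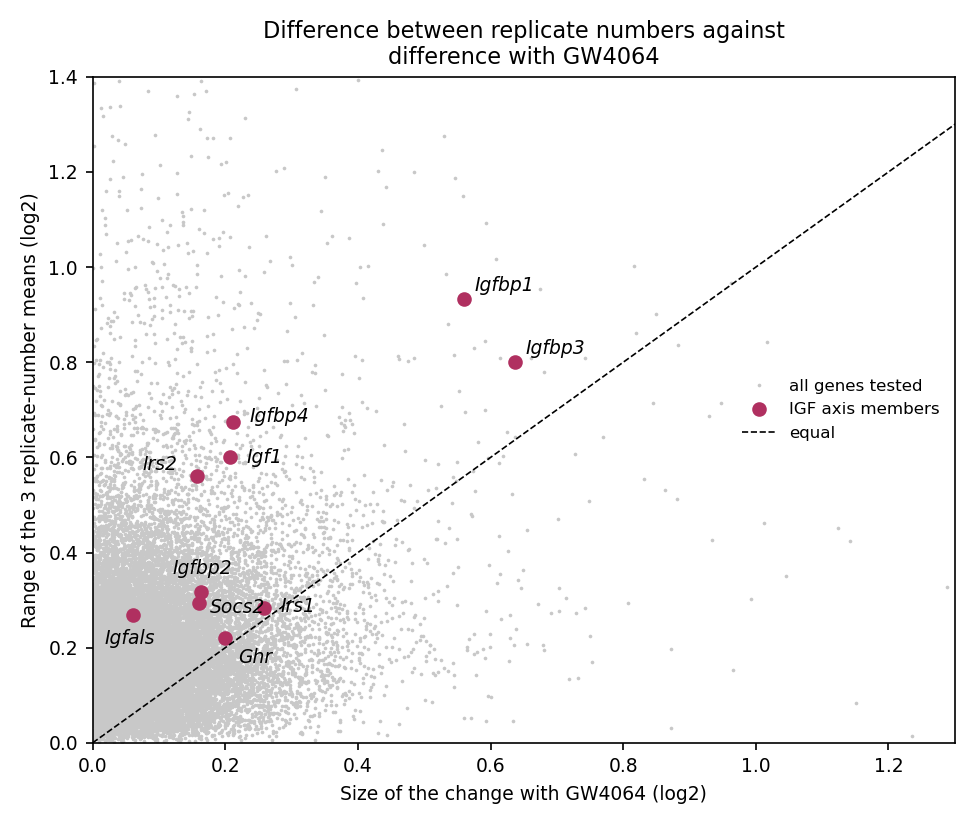
Range of the 3 replicate-number means (y axis, log2) against the size of the change with GW4064 (x axis, log2) for the members (red) and all genes tested (grey). All 10 members lie above the dashed line of equality, Ghr and Irs1 close to it, and 48 genes lie beyond the axes.

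The 2 members with the smallest p in the blocked fit were compared with all other named genes by the root-mean-square distance between log2 values over the 6 arrays, each gene centred on its own mean. Nearest to Igfbp3 were Cited2, a transcriptional coregulator, at a distance of 0.141, Emp1, an epithelial membrane protein gene, at 0.152, and Mlph, which encodes melanophilin, at 0.158. Cited2 had levels of 11.08, 10.72 and 10.49 in DMSO and 10.42, 10.25 and 9.82 with GW4064. Like Igfbp3 it was lowest in replicate 3 of each group, a likeness that choice by distance favours. Nearest to Igfbp1 were Atoh8, a basic helix-loop-helix transcription factor gene, at 0.137, Tmem114, a transmembrane protein gene, at 0.192, and Eef1akmt3, a lysine methyltransferase gene, at 0.208. Atoh8 went from 4.60, 4.57 and 5.27 to 4.45, 3.78 and 4.56. The distance covers both differences between replicates and the change with GW4064, so a near gene can differ in its change. Log2 changes were -0.60 for Cited2, -0.34 for Emp1 and -0.61 for Mlph. Those of Atoh8, Tmem114 and Eef1akmt3 were -0.55, -0.39 and -0.20. None of these 6 genes was called in either fit, where the smallest adjusted p was 0.108, for Mlph with the replicate block.

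The other IGF ligands, receptors, binding proteins and IGFBP proteases held no called gene in either fit (0 of 12 measured). Of these 10 were lower and 2 higher, with a median log2 change of -0.053. Igf1r, the IGF1 receptor, had 3.60, 3.63 and 3.41 in DMSO and 3.19, 3.45 and 3.33 with GW4064, a change of -0.22 (SE 0.11) at a level below that of the median gene. Stc1, which encodes the stanniocalcin that inhibits IGFBP proteases, had the smallest p of the list at -0.28 (SE 0.12, limma adjusted p = 0.863). The protease gene Htra1 had -0.23 (SE 0.11) and the binding protein gene Igfbp6 -0.25 (SE 0.15).

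The signalling genes behind Ghr had the smallest median size of change among the pathway lists, 0.054. Of 12 measured genes 3 were lower and 9 higher, with a median of 0.044, all changes lay between -0.17 and 0.14, and 0 were called in either fit. Stat3 had the smallest p, at -0.17 (SE 0.10), followed by Cish, an inhibitor that growth hormone induces through STAT5, at 0.14 (SE 0.12). Stat5b, the main transcription factor of the growth hormone response in liver, had -0.085 (SE 0.11), and Sh2b1, an adaptor of JAK2, 0.081 (SE 0.12). Genes that depend on growth hormone in liver held 10 lower and 3 higher values among 13 measured, with a median of -0.15 and 0 called in either fit. The list was not split by whether growth hormone raises or lowers a gene, so these counts give no direction for its action. The 4 with the smallest p were the cell cycle inhibitor gene Cdkn1a at -0.15 (SE 0.10), the fatty acid elongase gene Elovl3 at -0.25 (SE 0.17), Spink1, a trypsin inhibitor gene, at -0.31 (SE 0.23) and the oxysterol hydroxylase gene Cyp7b1 at -0.16 (SE 0.12). Levels of Elovl3 were 2.57 to 3.28 and those of Hsd3b5, another gene of the list, 1.37 to 1.78, both below the median gene.

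Downstream of the insulin and IGF1 receptors, 20 of 24 measured genes were lower and 4 higher, with a median of -0.072 and 0 called in either fit. In 12 of the 24 all 3 pairs were lower, where 18.6% of all genes were. In 5 the groups did not overlap and GW4064 was lower, where this held for 6.19% of all genes. Rictor, a subunit of the kinase complex that activates AKT, had 7.39, 7.30 and 7.57 in DMSO and 6.99, 6.91 and 7.07 with GW4064. All its treated arrays lay below all DMSO arrays, and the change was -0.43 (SE 0.10, limma adjusted p = 0.548, 0.237 with the block). Gab1, a docking protein gene, had -0.32 (SE 0.11), Foxo1, the transcription factor that insulin holds out of the nucleus, -0.30 (SE 0.10), and Foxo3 -0.23 (SE 0.10).

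Liver genes that FoxO1 or cAMP raise and insulin lowers, a group to which Igfbp1 and Irs2 belong by their known regulation, held 13 other measured genes, with 10 lower and 3 higher and a median of -0.23. None was called without the block. With it 1 was, where 0.0812% of all genes were. This was Pck1, an enzyme gene of gluconeogenesis, and its change was in the direction opposite to Igfbp1. Pck1 had 4.44, 4.94 and 6.29 in DMSO and 6.02, 7.13 and 7.91 with GW4064, higher in every pair, with a limma adjusted p of 0.689 and of 0.0288 with the block. Tsc22d3, a glucocorticoid-induced gene, had -0.42 (SE 0.11), Txnip, an inhibitor of thioredoxin and glucose uptake, -0.85 (SE 0.25), and Cited2 -0.60 (SE 0.19). In 9 of the 13 all 3 pairs were lower, where 18.6% of all genes were.

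Genes that insulin raises in liver split evenly, with 4 of 8 measured lower and 4 higher, a median of 0.031 and 0 called in either fit. The 4 that were higher were higher in all 3 pairs, where 12.6% of all genes were. The fatty acid synthase gene Fasn had 8.47, 8.15 and 7.92 in DMSO and 8.98, 8.67 and 8.46 with GW4064, a change of 0.52 (SE 0.17, limma adjusted p = 0.771, 0.151 with the block), with treated replicate 3 below DMSO replicate 1. The lipid droplet gene Pnpla3 had 0.37 (SE 0.17) and the elongase gene Elovl6 0.23 (SE 0.20). Srebf1, the transcription factor gene of lipid synthesis, had -0.11 (SE 0.11).

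**Figure D4:**
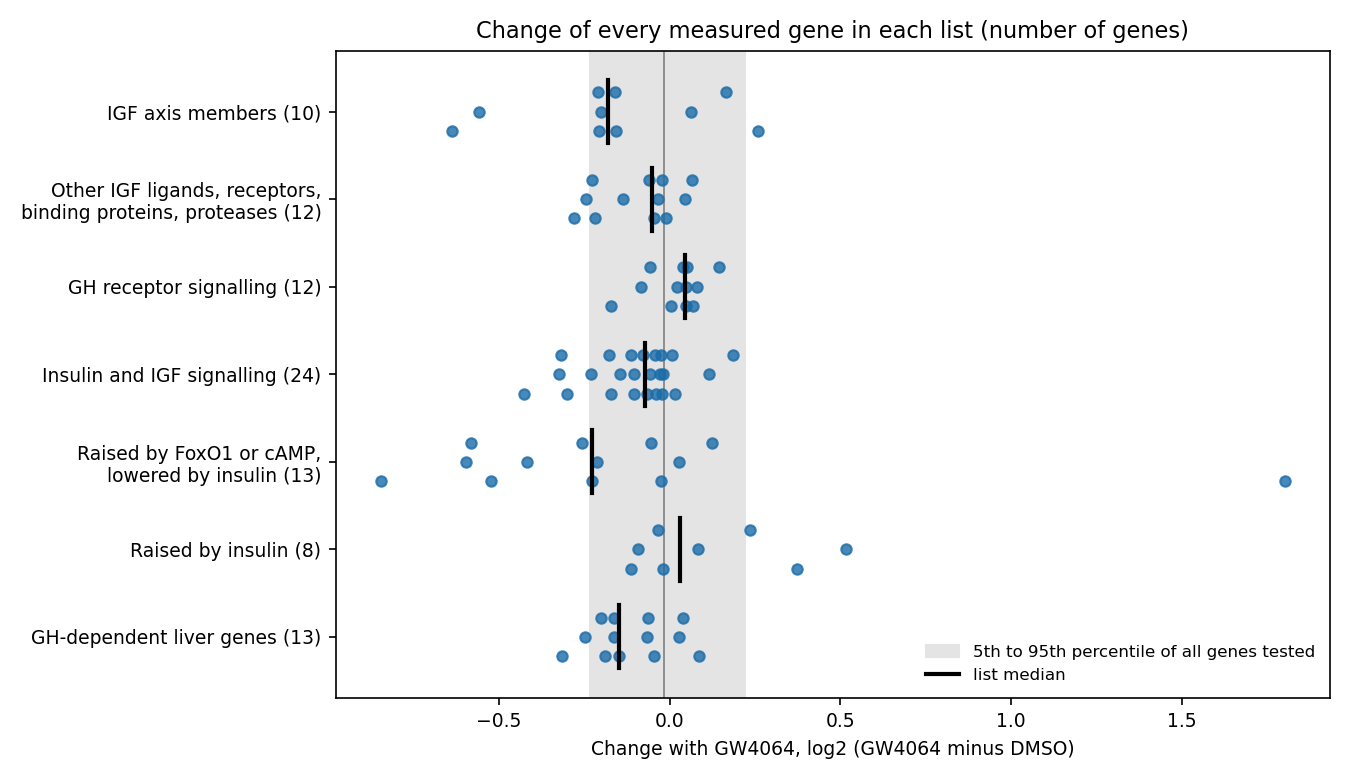
Log2 change with GW4064 (x axis) of every measured gene (points) in each list, with the list median (black bar), the median over all genes (thin line) and the 5th to 95th percentile of all 22180 genes, -0.23 to 0.22 (grey). Igfbp1 and Igfbp3 are the 2 leftmost points of the top row, Pck1 is the point at 1.80, and the growth hormone receptor signalling genes stay within the grey band.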

How the data were processed

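Total RNA was hybridised to Affymetrix MoGene-2_0-st arrays after biotin labelling, per the labels' protocols. The authors deposited log2 intensities per probe set, normalized with RMA, and Partek is also named, per the submitters' processing notes, which give no versions. No source gives the base of the logarithm. Base 2 was inferred from values between 1.18 and 13.02, as RMA output has. Quantile steps such as RMA's remove differences common to a whole array. Of 41345 probe sets, 23521 carried exactly 1 symbol in the platform annotation, 1814 several and 16010 none. For 1082 genes with several probe sets the one with the highest mean was kept, which left 22180 genes, and RefSeq symbols of the 10 members matched.

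Samples were grouped and numbered by title. GW4064 and DMSO were compared with limma 3.58.1 (lmFit and eBayes, R 4.3.3), unblocked and with no filter on dim genes. P-values were adjusted over all genes, with a threshold of 0.05. The fit was tested on simulated data. Intervals and SE are limma's moderated ones, unblocked unless stated. Ratios are back-transformed log2 changes.

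Deviations of same-numbered arrays from their group means correlated at 0.26, 0.341 and 0.45 for replicates 1, 2 and 3, and those of other pairings at -0.301 to -0.0246. Deviations cancel out within a group for each gene, so positive values for same-numbered arrays force the others to be negative on average. The negative values are therefore no separate evidence of pairing. The series names 3 independent preparations, and the numbers come from the titles, with no label tying a number to a preparation. Because same-numbered arrays deviated together, results are given from both fits.

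The named genes are the 10 members, Abcb11 and Nr0b2, up to 4 genes of each list with the smallest p, called genes, and the 3 genes nearest to each of 2 members. Stab2, Clec4f and Lrat were given as defining genes of their lists. Cd68, Sox9, Epcam, Cftr, Krt7, Krt19, Cdh5, Lyve1, Ass1, Serpina1a, Alb, Hnf4a and Hsd3b5 were named after their values were seen. Members, lists and motifs were chosen with earlier results of these data known. Listed genes without a single-symbol probe set were not analysed here. Alternatives were the block, quantile normalization, median centring, filters at the 25th percentile and the median of gene level, averaged probe sets, all probe sets, a trended robust prior, and each array or pair left out.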

Additional observations from a re-analysis of the deposited data

How the results depend on the processing

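No member was called in any of the 17 alternatives, and 8 of the 10 members kept the sign of their change in all of them. Igfals ranged from -0.081 to 0.18 and Socs2 from -0.39 to 0.094 with arrays or pairs left out. The smallest adjusted p of each member came with the replicate block, down to 0.108 for Igfbp3. The block changed no member's call. The number of genes called was 11 without the block, 18 with the replicate block, 17 with a trended robust prior and 2 over all probe sets, where 41345 were tested. It was 2 to 5 with any 1 array left out and 2 to 4 with a pair left out, so that the count fell by over 1.5 times whichever of the 6 arrays was omitted. Each such fit also rests on fewer arrays, so lost precision and the influence of an array cannot be told apart here. Among the pathway lists the count of called genes was 0, and 1 with the replicate block, namely Pck1. Leaving out a single array also breaks a same-numbered pair. Genes such as Igf1r, Stc1 and the second Irs1 probe set lie below the level of the median gene (4.20), and the deposited values carry no detection call.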
